A study of Mus musculus with 12 samples.

Results

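Whether loss of PKN2 changed how pancreatic stellate cells respond to TGF-β1 was examined as a difference of differences, the response of PKN2 KO cells minus the response of WT cells, for each gene of a targeted panel. All 12 libraries of the series entered the comparison. Of the 420 genes listed, 238 reached a normalized count of 10 in 3 libraries or more and entered the test, and 77 of the rest had no count in any library. A positive interaction means that the TGF-β1 response, on the log2 scale, was higher in PKN2 KO PSCs than in WT PSCs, and a negative one that it was lower.

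Pancreatic stellate cells (PSCs) are the resident fibroblast-like cells of the pancreas, and they build and remodel its extracellular matrix (ECM). TGF-β1 binds a receptor kinase that phosphorylates SMAD2 and SMAD3, which enter the nucleus with SMAD4 and change the transcription of collagens, matrix proteases and their inhibitors. PKN2 is a serine/threonine kinase, and YAP is a transcriptional co-activator that responds to cell tension and binds DNA through TEAD factors.

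The 4 groups were WT vehicle, WT with TGF-β1, PKN2 KO vehicle and PKN2 KO with TGF-β1, with 3 libraries each, lettered A, B and C in the labels. TGF-β1 was given at 5 ng/ml and RNA was taken after 72 h. By the study's methods, the PSCs came from a male C57BL/6 mouse with floxed Pkn2 and a tamoxifen-inducible Cre at Rosa26, were immortalized with SV40 large T antigen, and lost Pkn2 after exposure to 4-hydroxytamoxifen, so that genotype cannot be told apart from that exposure. The series text speaks of 3 lines of each genotype, and which libraries were grown together is not given in the sources used here, so p-values measure the spread between these libraries. Pkn2 itself and the stellate markers Acta2, Des, Gfap and Vim were not among the panel genes, so neither the deletion nor the stellate identity could be checked with them.

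The libraries held between 1074095 and 1473153 counts each, and the 10 most counted genes held 60.8% of them. The summed normalized count of 9 fibroblast markers lay between 250484 and 562566 in every library, with none of the 9 at 3 counts or fewer throughout. The sum over 9 endothelial markers was 9.44 to 24.0, with 5 of the 9 at 3 counts or fewer in every library, and that over 8 epithelial markers was 2.44 to 31.1, with 2 of the 8 at that level. The endothelial list leaves out Cd34, Mcam, Cd93 and Selp, which endothelial cells can also express. Their WT means were 597, 278, 1.73 and 0.787 in vehicle and 7.36, 322, 15.5 and 12.0 after TGF-β1. In PKN2 KO they were 510, 309, 1.37 and 0, and 3.71, 234, 6.18 and 13.8. The low sum therefore holds for the listed genes only. The sum over 12 leukocyte markers, 8 of which were at 3 counts or fewer throughout, was 200.0 to 383 in vehicle and 47.4 to 84.8 after TGF-β1, and the ranges of the genotypes overlapped in both conditions.

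Most of the TGF-β1 response was shared by the genotypes. In WT PSCs, 57 genes rose (23.9% of those tested) and 64 fell (26.9%) at an adjusted p under 0.05 in limma's test. In PKN2 KO PSCs, 47 rose (19.7%) and 69 fell (29.0%). The 101 genes called in both genotypes changed in the same direction, and they were 83.5% of the WT calls and 87.1% of the PKN2 KO calls. Across the 238 genes, which are not independent replicates, the log2 fold changes in WT and in PKN2 KO had a Pearson correlation of 0.94 and a Spearman correlation of 0.89.

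**Figure D1:**
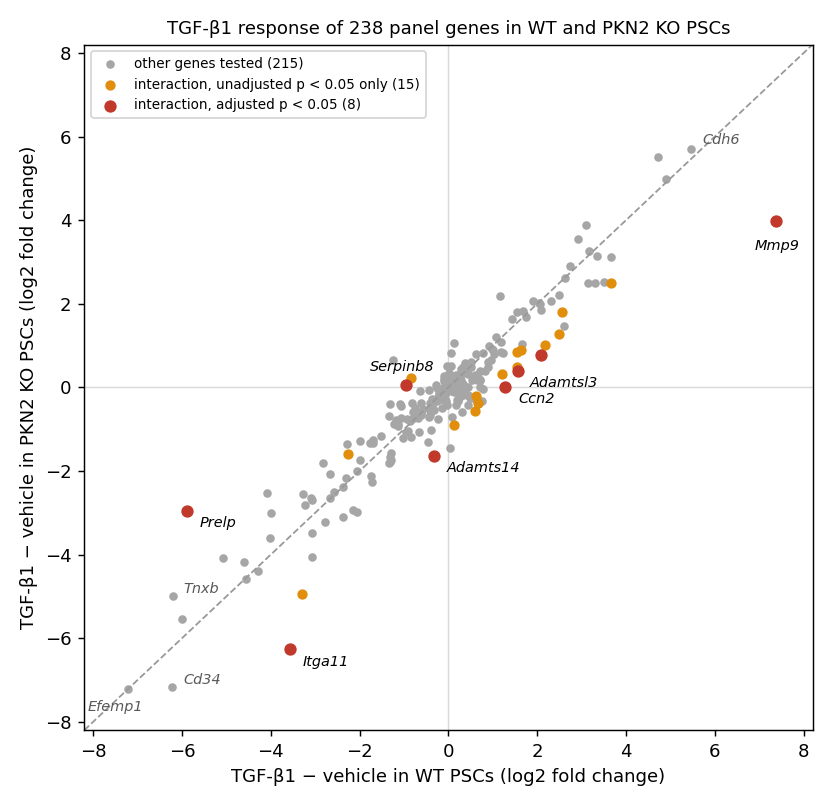
Log2 fold change with TGF-β1 over vehicle in WT PSCs (x axis) against that in PKN2 KO PSCs (y axis) for the 238 genes tested, each from 3 libraries a group, with the line of equal response dashed. Most genes lie along the line, while the 8 genes with an interaction at adjusted p under 0.05 (red) lie off it, 2 above and 6 below.

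The interaction passed an adjusted p of 0.05 for 8 of the 238 genes (3.36%), of which 2 were positive (0.840%) and 6 negative (2.52%). The positive ones were Prelp and Serpinb8, and the negative ones described here were Mmp9, Itga11, Adamts14, Ccn2 and Adamtsl3. With libraries scaled to their total count, 1 of 8 calls was positive, 12.5% in place of 25%. DESeq2's test called these 8 genes and Pcdh7, Itga7 and Thbs1, and edgeR's called 6 of the 8. At an unadjusted p under 0.05 there were 4 positive (1.68%) and 19 negative genes (7.98%). These fits took the libraries as independent. With a block for the replicate letter, whose meaning is not given, limma called between 17 and 42 genes.

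Of the 20 genes called only in WT, 3 had a called interaction, and of the 15 called only in PKN2 KO, 1 had. The difference between genotypes was therefore tested on its own for each gene and was not read from the lists of calls.

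The median interaction over the 238 genes was -0.07 on the log2 scale, with quartiles of -0.44 and 0.21, and 102 genes were positive and 136 negative. DESeq2's median-of-ratios scaling moved this median to 0.03. With the protocadherin gamma genes, which share exons, summed into 1 entry, it was -0.03 over 217 entries. The count of negative genes includes these genes one by one. The 95% interval of the interaction had a median half-width of 0.86, and it lay within -1 and 1 for 92 genes. For the other genes it reached past 1 in size.

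The calls depended on single libraries. Leaving out each library in turn gave between 0 and 11 calls. Without the third WT TGF-β1 library (C) or the second PKN2 KO vehicle library (B) limma called 0 genes, with 16 and 21 at an unadjusted p under 0.05. Prelp was called in 10 of these 12 fits, Mmp9 in 6, Serpinb8 in 5, Itga11 in 4, Adamts14 and Adamtsl3 in 3 each and Ccn2 in 2, and these 7 genes kept their sign throughout.

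The start regions of the 2 genes with a positive interaction are shown because each holds matches to a motif searched. RefSeq promoters on GRCm38.p6, 300 bases from 250 before the gene start to 50 after it, were found for 5 of these 7 genes, Prelp, Serpinb8, Adamts14, Itga11 and Adamtsl3, and not for Mmp9 and Ccn2. Each was searched on both strands for CATTCC (TEAD), CAGACA (which holds the CAGAC box bound by SMADs) and TGANTCA (AP-1), and no match printed overlaps another. The shorter CAGAC was not searched on its own, and both sequences printed also hold it unmarked on the other strand, as GTCTG. Capitals mark the matches, and sequences are written 5′ to 3′ on the strand of the gene, which is the minus strand for Prelp (chr1:133921352-133921651) and the plus strand for Serpinb8 (chr1:107589756-107590055).
Prelp: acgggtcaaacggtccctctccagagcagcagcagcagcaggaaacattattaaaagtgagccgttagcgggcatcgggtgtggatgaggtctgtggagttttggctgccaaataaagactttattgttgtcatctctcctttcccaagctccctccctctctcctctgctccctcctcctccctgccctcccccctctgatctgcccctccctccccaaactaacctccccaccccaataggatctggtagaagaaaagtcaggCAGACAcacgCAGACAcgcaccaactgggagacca
Serpinb8: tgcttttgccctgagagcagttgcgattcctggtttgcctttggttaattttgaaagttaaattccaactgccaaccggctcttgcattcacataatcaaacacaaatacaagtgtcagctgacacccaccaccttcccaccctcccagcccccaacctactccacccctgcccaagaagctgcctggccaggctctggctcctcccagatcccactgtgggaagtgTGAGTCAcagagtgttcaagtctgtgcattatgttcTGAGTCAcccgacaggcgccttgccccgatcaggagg
Prelp held 2 SMAD matches, at 16 and 26 bases from the gene start, counted from 1 at the first transcribed base. Serpinb8 held 2 AP-1 matches, 1 that begins 23 bases before the start and 1 that begins at base 14 after it. The windows of Adamts14, Itga11 and Adamtsl3 held none of the 3 motifs, which says only that these letters are not in these windows. Of all 32851 promoters in the table, 21% held the SMAD motif, 7.81% the AP-1 motif and 14.7% the TEAD motif. Of the 154 tested genes with a promoter, 24.7%, 7.14% and 11.7% held them. The first shares count promoters and the second count genes with a match in any of their promoters, so their units differ. The matches are given as a description.

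Prelp encodes a small leucine-rich proteoglycan that anchors basement membranes to connective tissue, and it lies at chr1:133910304-133921414 (GENCODE vM21, GRCm38). Its normalized counts were 1279, 591 and 970 in WT vehicle (libraries A, B and C) and 21.2, 11.9 and 11.5 in WT with TGF-β1. Those in PKN2 KO were 3204, 2325 and 3379 in vehicle and 654, 256 and 323 with TGF-β1. All PKN2 KO libraries lay above those of WT under the same treatment, and all TGF-β1 libraries lay below the vehicle libraries of their genotype. Prelp fell 59.0-fold in WT (log2 fold change -5.88 ± 0.35, SE, n = 3 libraries a group) and 7.73-fold in PKN2 KO (-2.95 ± 0.35). The interaction was 2.93 ± 0.50 on the log2 scale, with an adjusted p of 0.0107 in limma's test and a 95% interval of 1.86 to 4.01.

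Serpinb8, at chr1:107590006-107610484, encodes an intracellular serine protease inhibitor. Normalized counts of Serpinb8 were 391, 427 and 444 in WT vehicle and 198, 220 and 232 in WT with TGF-β1. The PKN2 KO libraries had 793, 796 and 831 in vehicle and 979, 813 and 731 with TGF-β1. The WT libraries separated by treatment, those of PKN2 KO overlapped, and the 6 PKN2 KO libraries all exceeded the 6 of WT. Serpinb8 fell 1.94-fold in WT (log2 fold change -0.96 ± 0.15) and its log2 fold change in PKN2 KO was 0.05 ± 0.15 (adjusted p = 0.831). The interaction was 1.01 ± 0.21 (adjusted p = 0.0257 in limma's test), and its adjusted p was 0.0846 with total count scaling and 0.0534 without limma's variance trend.

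**Figure D2:**
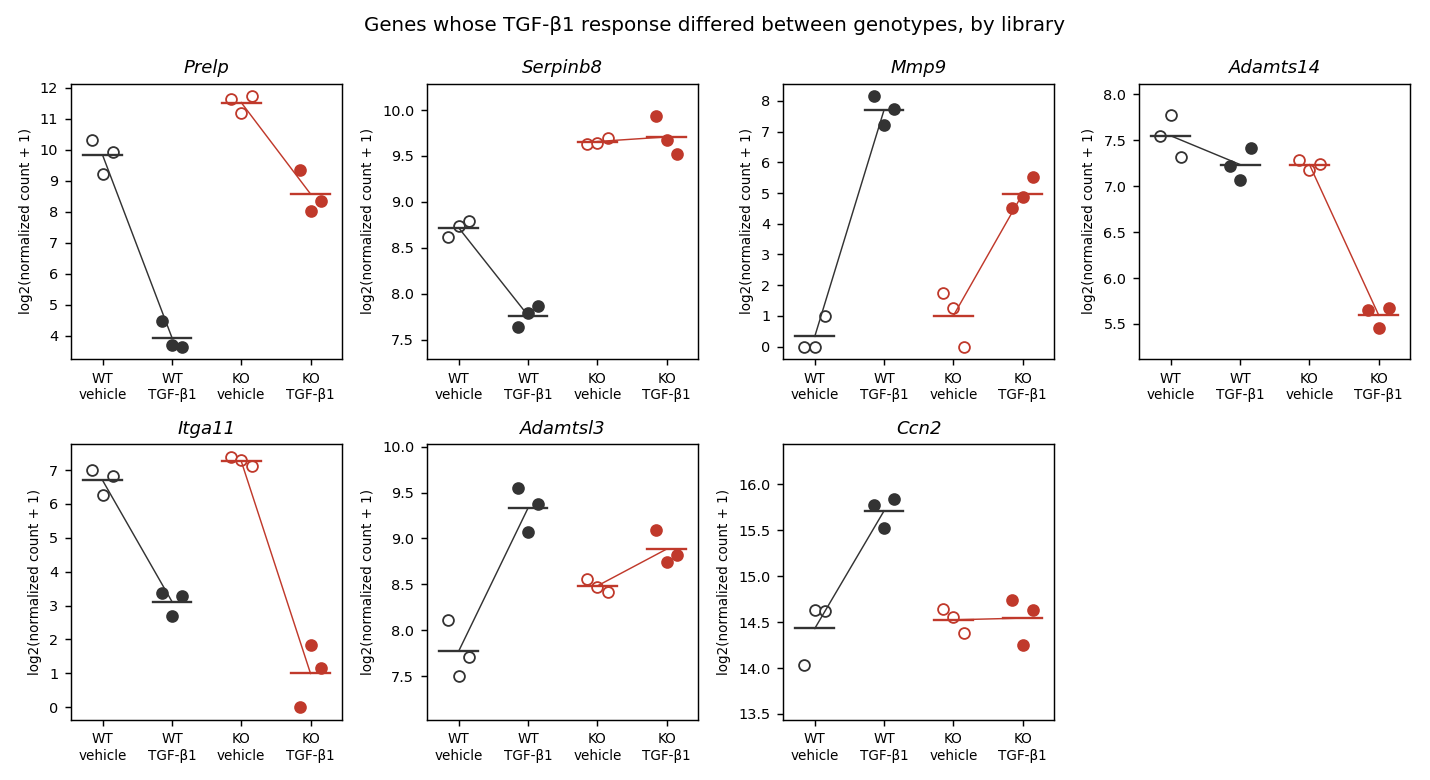
Log2(normalized count + 1) in each library of 7 genes whose interaction passed an adjusted p of 0.05, with WT in black, PKN2 KO in red, vehicle as open and TGF-β1 as filled points. Short bars are means of 3 libraries, thin lines join vehicle to TGF-β1 within a genotype, and the y axes differ between genes and do not start at 0. Ccn2 and Serpinb8 are level in PKN2 KO and slope in WT.

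Mmp9, at chr2:164940780-164955850, encodes gelatinase B, a secreted protease of basement membrane collagen and gelatin. For Mmp9 the normalized counts were 0, 0 and 0.99 in WT vehicle and 284, 149 and 214 in WT with TGF-β1. In PKN2 KO they were 2.34, 1.41 and 0 in vehicle and 21.9, 28.4 and 45.2 with TGF-β1. The vehicle libraries of the genotypes overlapped near 0, and with TGF-β1 the 3 PKN2 KO libraries lay under the 3 of WT.

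Mmp9 rose in both genotypes, from so few vehicle counts that the size of each rise is loosely set. Summed over 3 libraries, WT had 1 count in vehicle and 652 after TGF-β1, a depth-corrected ratio of 691 with a 95% exact counting interval of 124 to 27331, and PKN2 KO had 4 and 86, a ratio of 25.4 with an interval of 9.59 to 95.5. After TGF-β1 the summed ratio of WT over PKN2 KO was 6.52 (5.20 to 8.27). These intervals cover counting error only and not the spread between libraries. The fitted interaction, which depends on the pseudocount, was -3.41 ± 0.72 (adjusted p = 0.0257 in limma's test) with a pseudocount of 1 and lay between -4.67 and -2.80 under the other scalings, pseudocounts and tools, of which edgeR's test gave an adjusted p of 0.148.

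Itga11, at chr9:62677826-62783982, encodes the integrin α11 chain, a receptor for fibrillar collagen on fibroblasts. Its normalized counts were 127, 75.7 and 111 in WT vehicle and 9.44, 5.53 and 8.65 in WT with TGF-β1. Those in PKN2 KO were 166, 156 and 137 in vehicle and 0, 2.58 and 1.22 with TGF-β1. PKN2 KO was above WT in every vehicle library and below it in every TGF-β1 library.

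Itga11 fell in both genotypes, and summed over 3 libraries the ratio of vehicle to TGF-β1 was 13.1 in WT (95% counting interval 8.65 to 20.7, from 333 and 24 counts) and 104 in PKN2 KO (40.3 to 383, from 492 and 4 counts). The interaction was -2.69 ± 0.62 (adjusted p = 0.0257 in limma's test), and it was -1.60 with a pseudocount of 5 and -3.14 with a pseudocount of 0.5. With total count scaling its adjusted p was 0.0554. With at least 10 normalized counts required in every library, neither Itga11 nor Mmp9 was tested.

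Adamts14, at chr10:61197112-61273438, encodes a protease that removes the amino-terminal propeptide of procollagens. Normalized counts of Adamts14 were 186, 218 and 159 in WT vehicle and 149, 133 and 170 in WT with TGF-β1. The PKN2 KO libraries had 155, 144 and 150 in vehicle and 49.2, 43.0 and 50.0 with TGF-β1. The WT libraries overlapped between treatments, and the 3 PKN2 KO libraries with TGF-β1 were the lowest of the 12. For Adamts14 the log2 fold change in WT was -0.31 ± 0.21 (adjusted p = 0.260), and it fell 3.12-fold in PKN2 KO (-1.64 ± 0.21). The interaction was -1.33 ± 0.30 (adjusted p = 0.0257 in limma's test, 0.0693 with total count scaling).

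Adamtsl3, at chr7:82335694-82614450, encodes a matrix glycoprotein of the ADAMTS-like family, which lacks the protease domain. For Adamtsl3 the normalized counts were 275, 180 and 208 in WT vehicle and 747, 537 and 663 in WT with TGF-β1. In PKN2 KO they were 377, 354 and 340 in vehicle and 546, 426 and 450 with TGF-β1. PKN2 KO was above WT in vehicle, the genotypes overlapped after TGF-β1, and treatments separated in both. Adamtsl3 rose 2.94-fold in WT (log2 fold change 1.56 ± 0.19), and in PKN2 KO its log2 fold change was 0.40 ± 0.19 (adjusted p = 0.0965). The interaction was -1.16 ± 0.26 (adjusted p = 0.0257 in limma's test, 0.0610 without the variance trend).

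Of the genes that TEAD and YAP are known to drive, 6 panel genes are described. These are part of the panel genes that the study counts from earlier work on YAP targets in cancer-associated fibroblasts. They were taken up here with earlier results of these data known. Of the 6, Ccn2 had a negative interaction at an adjusted p under 0.05, where 2.52% of all genes tested had one. None had a positive one, where 0.840% did. At an unadjusted p under 0.05, 3 of the 6 were negative, where 7.98% of all genes tested were. Their median interaction was -0.48, against -0.07 over all genes tested. With TGF-β1, 5 of the 6 rose in WT, where 23.9% of all genes tested rose, and 2 rose in PKN2 KO, where 19.7% did, with none of the 6 falling in either.

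Ccn2, at chr10:24595442-24598683, encodes connective tissue growth factor, a secreted matricellular protein. Normalized counts of Ccn2 were 16769, 25375 and 25292 in WT vehicle and 56006, 47181 and 58592 in WT with TGF-β1. The PKN2 KO libraries had 25506, 24112 and 21302 in vehicle and 27421, 19487 and 25482 with TGF-β1. The WT libraries separated by treatment, and all 6 PKN2 KO libraries lay within or near the range of WT vehicle. Ccn2 rose 2.43-fold in WT (log2 fold change 1.28 ± 0.22), and its log2 fold change in PKN2 KO was 0.02 ± 0.22 (adjusted p = 0.967). The interaction was -1.26 ± 0.31 (adjusted p = 0.0386 in limma's test, 0.0658 at the highest under the other scalings, pseudocounts and tools).

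Thbs1 encodes thrombospondin-1, a matrix protein that can activate latent TGF-β. For Thbs1 the normalized counts were 8282, 6968 and 7769 in WT vehicle, 26926, 17429 and 23268 in WT with TGF-β1, 9211, 8163 and 8106 in PKN2 KO vehicle and 15110, 9320 and 11887 in PKN2 KO with TGF-β1. The genotypes overlapped in vehicle, and with TGF-β1 the PKN2 KO libraries were the lower ones without overlap. Its interaction of -1.05 ± 0.32 did not pass adjustment in the main test (adjusted p = 0.108), and it passed with TMM (0.0213), median-of-ratios (0.0208) and total count scaling (0.00493) and with DESeq2's test (0.0180).

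Fbn1, which encodes fibrillin-1 of elastic microfibrils, had an interaction of -0.90 ± 0.40 (unadjusted p = 0.0417, adjusted p = 0.490 in limma's test). It rose 2.32-fold in WT, and its log2 fold change in PKN2 KO was 0.32 ± 0.28. The other three targets had intervals of the interaction that spanned 0. Cd44, the hyaluronan receptor, rose 1.98-fold in WT and 1.89-fold in PKN2 KO, with an interaction of -0.07 (95% interval -0.67 to 0.54) that turned positive under TMM and median-of-ratios scaling. Col5a2, a chain of type V collagen, rose 1.89-fold and 1.99-fold, with an interaction of 0.07 (-0.65 to 0.80). Tgfbi, an integrin-binding matrix protein, passed the test in neither genotype and had an interaction of 0.23 (-0.58 to 1.04).

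**Figure D3:**
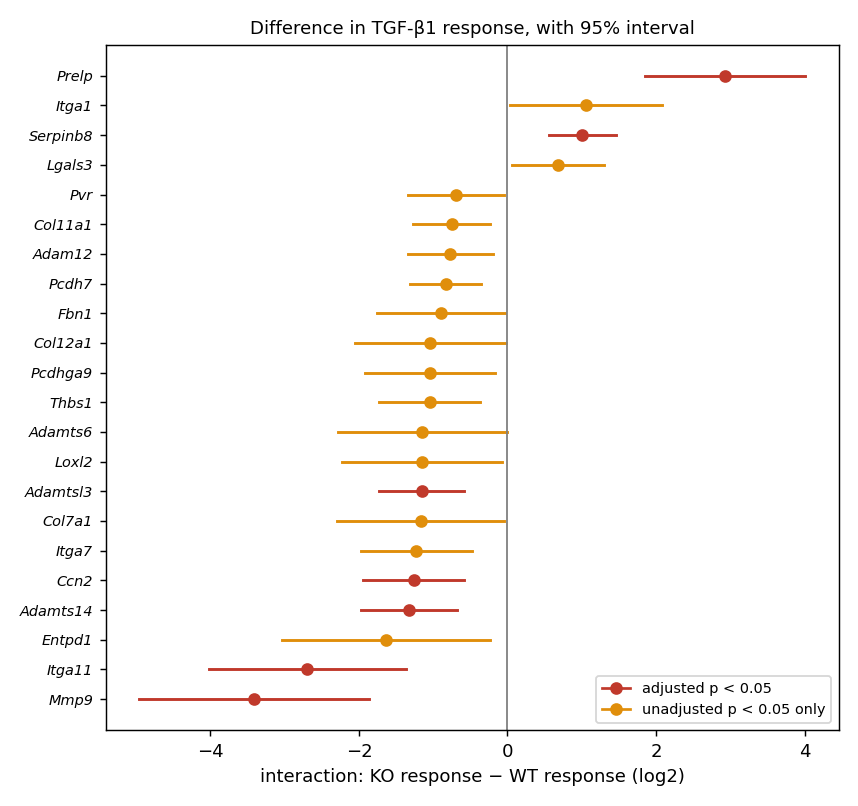
Interaction of genotype and TGF-β1 (x axis, log2 scale, PKN2 KO response minus WT response) with its 95% interval from limma for genes at an unadjusted p under 0.05. Those at an adjusted p under 0.05 are in red, and all but Prelp, Serpinb8, Itga1 and Lgals3 lie below 0.

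A further 15 genes were at an unadjusted p under 0.05 and did not pass adjustment, 13 of them negative and 2 positive. Among 238 genes tested, some are expected under that threshold without any difference, so these genes are described and were not called by limma's test. Pcdh7, a protocadherin of cell adhesion, came closest (adjusted p = 0.0572 in limma's test). Its normalized counts were 224, 266 and 208 in WT vehicle, 323, 394 and 362 in WT with TGF-β1, 498, 509 and 493 in PKN2 KO vehicle and 435, 485 and 388 in PKN2 KO with TGF-β1. It rose 1.55-fold in WT, and in PKN2 KO, where vehicle was already above every WT library, its log2 fold change was -0.20 ± 0.16.

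Itga7, a laminin-binding integrin chain, had an interaction of -1.22 ± 0.35 (adjusted p = 0.0867 in limma's test). Normalized counts of Itga7 were 64.9, 50.7 and 55.2 in WT vehicle, 376, 298 and 305 in WT with TGF-β1, 223, 143 and 166 in PKN2 KO vehicle and 572, 303 and 436 in PKN2 KO with TGF-β1. It rose in both genotypes, 5.65-fold in WT and 2.42-fold in PKN2 KO, and PKN2 KO was higher in vehicle while the genotypes overlapped after TGF-β1.

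Adam12, a membrane-bound metalloprotease, showed the same order of levels. It rose 5.94-fold in WT and 3.49-fold in PKN2 KO, with an interaction of -0.77 ± 0.27. Adamts6, a secreted metalloprotease, rose 4.49-fold and 2.03-fold, with an interaction of -1.14 ± 0.53.

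Several collagen genes belonged to this group. Col11a1, a minor fibrillar collagen, rose 3.12-fold in WT and 1.85-fold in PKN2 KO, with an interaction of -0.75 ± 0.24. Col7a1, the collagen of anchoring fibrils, rose 12.7-fold and 5.65-fold, with an interaction of -1.17 ± 0.52. Col12a1, a fibril-associated collagen, fell 1.87-fold in PKN2 KO and had a log2 fold change of 0.14 ± 0.34 in WT, with an interaction of -1.04 ± 0.47.

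Loxl2, an enzyme that cross-links collagen, passed the TGF-β1 test in neither genotype and had an interaction of -1.15 ± 0.50. Pvr, the poliovirus receptor and a nectin-like adhesion molecule, rose 2.90-fold in WT and 1.79-fold in PKN2 KO, with an interaction of -0.69 ± 0.30. Pcdhga9 had an interaction of -1.04 ± 0.41, but the protocadherin gamma genes share exons and the counting could split reads between them, so it is uncertain.

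Entpd1, which encodes the ectonucleotidase CD39, fell to 1 count over the 3 PKN2 KO libraries with TGF-β1, and its fitted interaction of -1.63 ± 0.65 depends on the pseudocount. The summed ratio of vehicle to TGF-β1 was 10.5 in WT (95% counting interval 6.42 to 18.5) and 108 in PKN2 KO (19.1 to 4304). The 2 positive genes were Lgals3, a galectin, which fell 4.82-fold in WT and 3.01-fold in PKN2 KO with an interaction of 0.68 ± 0.29, and Itga1, a collagen-binding integrin chain, with an interaction of 1.06 ± 0.48 and a TGF-β1 response that passed the test in neither genotype.

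The largest TGF-β1 responses in WT had the same direction in PKN2 KO, and they differed in how near the fitted sizes were. Apart from Mmp9, the largest rises in WT were those of Cdh6, a cadherin, at 44.4-fold against 51.8-fold in PKN2 KO, Adamtsl2, a fibrillin-binding matrix protein, at 30.0-fold against 31.9-fold, Smoc2, a matricellular protein, at 26.2-fold against 45.7-fold, and Col7a1. The interactions of Cdh6, Adamtsl2 and Smoc2 were 0.22 (95% interval -0.62 to 1.06), 0.09 (-0.85 to 1.02) and 0.80 (-0.41 to 2.01).

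Efemp1, which encodes the matrix protein fibulin-3, had the largest fall, from 6322, 4155 and 5900 to 40.1, 24.5 and 43.2 in WT and from 3008, 2559 and 3678 to 19.1, 19.8 and 19.5 in PKN2 KO. It fell 149.5-fold and 148.8-fold, with an interaction of 0.01 (95% interval -0.69 to 0.70). Levels in PKN2 KO were below those in WT without overlap in both conditions, while the fitted fold changes were nearly equal.

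Cd34, a sialomucin of stromal and endothelial progenitor cells, fell from between 594 and 599 to between 4.74 and 10.6 in WT and from between 419 and 668 to between 0 and 6.84 in PKN2 KO, with an interaction of -0.95 (-2.70 to 0.80). Tnxb, which encodes tenascin-X, reached 0, 0 and 2.88 in WT with TGF-β1 and 5.47, 4.30 and 3.66 in PKN2 KO, and Cdh26, a cadherin, reached 0, 2.37 and 1.92 and 0, 0 and 1.22. The fitted interactions of Tnxb (1.21, -0.20 to 2.62) and Cdh26 (0.46, -1.05 to 1.96) rest on these few counts and on the pseudocount.

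By gene list, the calls were spread over several families. Among 25 genes known to respond to TGF-β1 in matrix-producing cells, 11 rose and 1 fell in WT. In PKN2 KO, 4 rose and 2 fell. Of the 25, 3 had a negative interaction at an adjusted p under 0.05. The median interaction over the 25 was -0.27, against -0.07 over all genes tested. Over all genes tested, 23.9% rose and 26.9% fell in WT, and 19.7% rose and 29.0% fell in PKN2 KO. A called interaction was found for 3.36% of all genes and a negative one for 2.52%. Of the 10 fibrillar collagen genes tested, 5 rose and 1 fell in WT and 4 rose and 1 fell in PKN2 KO, and none had a called interaction in limma's test, in DESeq2's or in edgeR's, with Col11a1 at an unadjusted p under 0.05. Their interactions ran from -0.80 for Col27a1 to 0.56 for Col3a1, whose 95% interval was -0.47 to 1.59.

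Basement membrane genes, collagen VI and the collagen-processing enzymes had no called interaction in these 3 tests either, and Loxl2 alone was at an unadjusted p under 0.05. Limma's test called 3.36% of all genes tested, so lists this short could hold no call without differing from the rest. Among 15 basement membrane genes the interactions ran from -0.63 for Col18a1, the source of endostatin, to 0.64 for Lamb3, a laminin chain, with a median of -0.01. Those of 3 collagen VI genes ran from -0.34 for Col6a3 to 0.43 for Col6a2. Those of 9 processing enzymes ran from the -1.15 of Loxl2 to 0.23 for Plod3, a lysyl hydroxylase.

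Proteases and their inhibitors held calls in several lists, where 3.36% of all genes tested were called. These lists are too short for so few calls to set a family apart. As in the other lists, a called gene that is not reported here was left out. Of 11 matrix metalloproteinases tested, Mmp9 alone had a called interaction, and the highest value was 0.58 for Mmp28. Of 11 ADAMTS proteases, Adamts14 was called, and Adamts9, a versican-cleaving protease, had the highest value, 1.54, with a 95% interval of -0.09 to 3.16. Of 4 ADAMTS-like genes, Adamtsl3 was called and Adamtsl4 was highest at 0.44. Among the 12 serpins in the list, Serpinb8 was called, and the lowest value in the list was -0.54 for Serpinf2, which encodes the plasmin inhibitor α2-antiplasmin. None of 11 ADAM genes, from Adam12 to Adam32 at 0.46, and none of 3 TIMP genes, from Timp3 at -0.27 to Timp2 at 0.36, had a called interaction in limma's, DESeq2's or edgeR's test, and Adam12 alone was at an unadjusted p under 0.05.

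Among adhesion receptors, Itga11 was the 1 called gene of 12 integrin alpha chains, 10 of which had a negative interaction, with a median of -0.32. Over all genes tested, 3.36% were called and 136 of 238 were negative. The 6 integrin beta chains had no call in the 3 tests, none at an unadjusted p under 0.05, and ran from -0.98 for Itgb3 to 0.16 for Itgb7. Among 7 cadherins, with no call and none at an unadjusted p under 0.05, the values ran from -0.27 for Cdh2 to 0.71 for Cdh18, and among 5 protocadherins outside the gamma cluster from the -0.83 of Pcdh7 to 1.0 for Pcdh9, with Pcdh7 called by DESeq2's test and not by limma's or edgeR's. Prelp was the 1 called gene of 6 small leucine-rich proteoglycans, in which Ecm2 was lowest at -0.80. No call of limma's fell among 8 elastic fibre genes, from Fbn1 to Fbln1 at 0.34, or 3 thrombospondins, from Thbs1, called by DESeq2, to Thbs2 at 0.04.

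The 8 fibroblast markers tested, which include Col3a1 and Thbs1, had no called interaction in limma's test, where 3.36% of all genes tested had one. DESeq2's test called 1 of them (Thbs1), and their median interaction was -0.12. The 1 gene of the endothelial list tested, Mmrn2, had an interaction of -1.49 (95% interval -3.36 to 0.38) from normalized counts of 1.37 to 15.5. The 2 leukocyte markers tested, the integrin beta chains Itgb2 and Itgb7, fell in both genotypes, with interactions of -0.34 and 0.16. In bulk RNA, fewer cells of a type and less RNA per cell cannot be told apart.

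**Figure D4:**
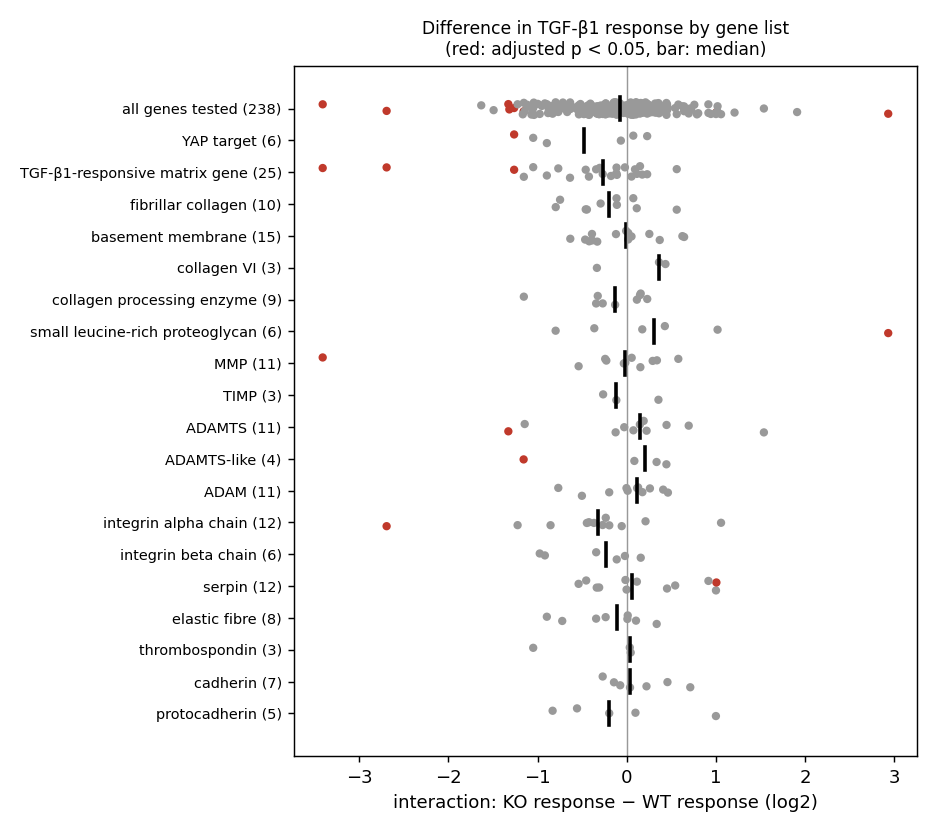
Interaction of genotype and TGF-β1 (x axis, log2 scale) for each gene tested (points), by gene list with the number tested, with the median as a black bar and genes at an adjusted p under 0.05 in red. Points are shifted up and down at random for visibility. The list of YAP targets has the lowest median of the lists plotted, -0.48, and the median over all genes is -0.07. It holds 6 genes, with values from -1.26 to 0.23, and was chosen with earlier results of these data known. Its place among the lists is therefore not a test.

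**Figure D5:**
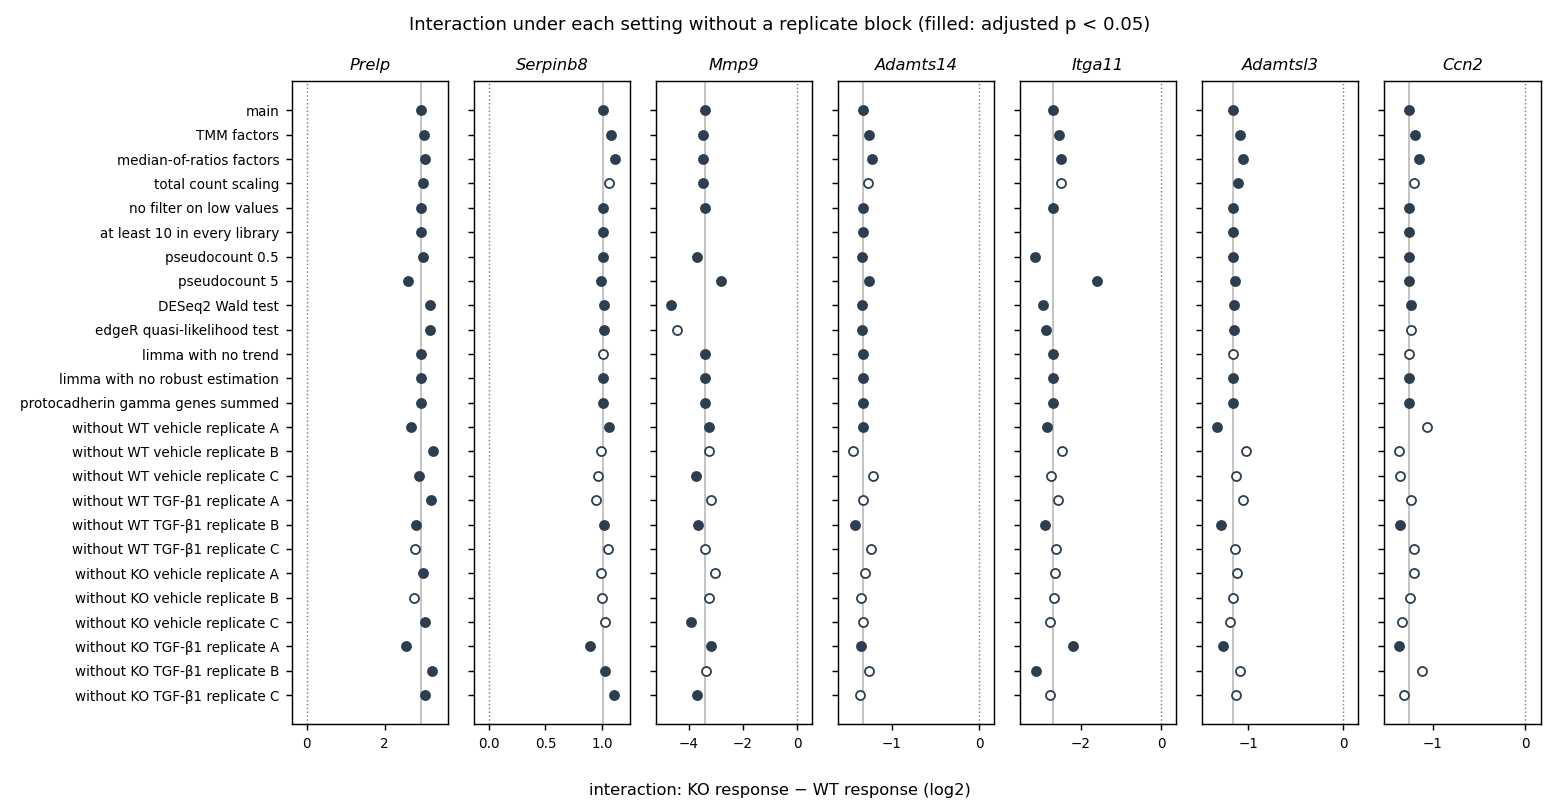
Interaction (x axes, log2 scale, one panel a gene) of 7 called genes under the reported fit, 12 other settings and the 12 fits that each leave out 1 library, with filled points at an adjusted p under 0.05 and a grey line at the main value. Mmp9 and Itga11 have no point where every library needed 10 normalized counts. All points of a gene lie on the same side of 0, and in the fits without 1 library most points of the genes other than Prelp are open.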

How the data were processed

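RNA of PSCs was profiled with a QIAseq targeted panel of mouse ECM and cell adhesion genes. Per the labels, the authors aligned reads to mm10 with STAR and used DESeq2 1.32. Raw counts of each gene were deposited by the authors, with normalized counts, a signal that is each library's counts divided by 1 factor, and their methods name reference genes for normalization. In the raw table, 6 columns carry a repeated name and were not used. The 12 libraries came from the normalized tables, and reads recovered from them were equal to the deposited counts for all 420 genes in the other 6 libraries. They lay within 5.82e-05 of whole numbers.

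Genes that reached a normalized count of 10 in 3 libraries or more were tested with limma 3.58.1 (R 4.3.3) on log2(normalized count + 1), with eBayes, a variance trend and robust estimation, 1 mean for each of 4 groups and Benjamini-Hochberg adjustment at 0.05. Because of the pseudocount, fold changes of genes with few counts are understated. Ratios of summed reads used each library's factor and exact 95% intervals. Alternatives were TMM, median-of-ratios and total count scaling, 2 other filters, pseudocounts of 0.5 and 5, DESeq2 1.42.0, edgeR 4.0.16, no trend, no robust estimation, protocadherin gamma genes summed, each library left out, and replicate blocks. Scripts were tested on simulated data with independent libraries and with interactions larger than most of those called here, set in genes with many counts. That run does not cover smaller interactions, genes with few counts or structure shared between libraries.

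Named genes were those at an unadjusted or adjusted p under 0.05 for the interaction, the 5 largest responses in WT in each direction, the YAP targets, and the lowest and highest of each list. A called gene that counts among the calls was left out of the lists and is not reported here. Members and lists were chosen with earlier results of these data known. Sequences are from RefSeq (GRCm38.p6) and gene positions from GENCODE vM21.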

Additional observations from a re-analysis of the deposited data

Results flagged for a closer look

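The 7 genes described differed between WT and PKN2 KO PSCs in their response to TGF-β1 by the interaction test. Prelp (2.93 on the log2 scale) and Serpinb8 (1.01) fell less, or did not pass the test for a fall, in PKN2 KO. The interactions of Mmp9 (-3.41), Adamtsl3 (-1.16) and Ccn2 (-1.26) came with a smaller rise or none that passed the test in PKN2 KO. Those of Itga11 (-2.69) and Adamts14 (-1.33) came with a larger fall in PKN2 KO. With 3 libraries a group, no single library was tested as standing apart.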

How the results depend on the processing

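The 121 TGF-β1 calls in WT and 116 in PKN2 KO stayed within 1.5 times under every setting run, with 112 to 125 and 99 to 116 when 1 library was left out. The 8 interaction calls (2 positive, 6 negative) were 11 with TMM, median-of-ratios scaling and DESeq2, 10 with no filter, 8 with either other pseudocount, without robust estimation and with the protocadherin gamma genes summed, 7 with 10 counts required in every library and 6 with edgeR, which lost Ccn2 and Mmp9. Total count scaling gave 8, of which 4 were shared with the main test and 1 was positive. Without the variance trend there were 4 (1 positive, 3 negative).

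Leaving out 1 library gave 0 to 11 calls, 0 to 2 of them positive and 0 to 9 negative. There were 0 without WT TGF-β1 C or PKN2 KO vehicle B, 1 without WT vehicle B, WT TGF-β1 A or PKN2 KO vehicle A, 2 without WT vehicle C or PKN2 KO vehicle C, 3 without PKN2 KO TGF-β1 B or C, 6 without WT vehicle A, 9 without WT TGF-β1 B and 11 without PKN2 KO TGF-β1 A. The cause was not tested. No called interaction changed sign under any setting.

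The labels do not say that a replicate letter marks a shared culture. Deviations of same-letter libraries had a mean correlation of 0.389, with 13 of 18 pairs over 0.1. Pairs lettered A or B lay between 0.348 and 0.701 and pairs lettered C between -0.230 and 0.142, and 7 of 12 libraries correlated best with their own letter, a hint of shared structure for A and B. Deviations within a group of 3 libraries cancel out, so the weak pairs of C do not show that C was unpaired. The factors that divided the counts also went by letter. They were 1.16 to 1.48 for B, 0.819 to 1.04 for C and 0.731 to 0.853 for A. Not every pair was over 0.1, and whether the letters mark paired cultures was not settled. The block was kept as an alternative. With the replicate block there were 42 calls (9 positive, 33 negative), and with the block within genotype 41 (9 and 32). The prior degrees of freedom were infinite for 197 and 221 genes. With no trend as well the replicate block gave 17 (4 and 13), and within genotype, a setting added after seeing the data, 22 (4 and 18). All 8 main calls were among them in each. Of the 15 genes at an unadjusted p under 0.05 only, Pcdh7, Itga7, Thbs1, Pcdhga9, Loxl2, Fbn1 and Col12a1 passed adjustment in all 4 fits with a replicate block, Col11a1 and Adamts6 in 3, Adam12, Lgals3 and Pvr in 2, and Entpd1, Col7a1 and Itga1 in none (limma).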
